A study of Mus musculus with 8 samples.

Results

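The miR-106b-25 and miR-106a-363 clusters are the paralogues of the miR-17 cluster. Their members were taken as all array names for mmu-mir-106b, mmu-mir-93 and mmu-mir-25 of the first cluster and for mmu-mir-106a, mmu-mir-18b, mmu-mir-20b and mmu-mir-363 of the second, whatever the suffix for form, arm or copy. Of these 7 miRNAs 6 had a row, 1 each in the mature and the precursor table, so 12 of the 707 names on the array belong to the clusters. No row carried the name miR-18b, and its level was not analysed here. RNA came from LSK cells of mouse bone marrow, those without lineage markers but with cKit and Sca1, among which are the blood stem cells and their earliest progeny. WT arrays came from 4 mice of genotype Tsc1f/f,Mx1-Cre- and KO arrays from 4 of genotype Tsc1f/f,Mx1-Cre+. All 8 were females of strain C57BL/6, 10 weeks old, and all received 7 injections of 400 µg pIpC, 10 days before the cells were taken. Both groups therefore carry floxed Tsc1 and were exposed to pIpC, an interferon inducer that switches on the Mx1 promoter in blood cells and in other tissues. The labels call the arrays biological replicates of littermates. The design text also speaks of conditional Raptor alleles, whereas the genotype labels name only Tsc1, and these were used. The probes read miRNAs, so neither the loss of Tsc1 nor the surface markers of the sort could be checked.

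Tsc1 restrains mTORC1, a kinase complex that promotes growth. A miRNA gene is transcribed as a long primary RNA, from which Drosha cuts a hairpin precursor and Dicer then the mature strand, whose seed near the 5′ end pairs with target mRNAs. The miR-106b-25 hairpins lie within Mcm7, a gene for a subunit of the DNA replication helicase, and are transcribed with it in dividing cells. miR-106b and miR-93 are known to lower the cell cycle inhibitor p21, and miR-25 the cell death factor Bim. The miR-106a-363 cluster on the X chromosome is known as a site of retroviral insertion in mouse T-cell lymphomas.

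The mature strands that carry the family seeds are shown because near-identity between members of different clusters bears on what each probe can tell apart. They are from RefSeq (GRCm38.p6), with the seed, bases 2 to 8, in capitals. All 7 members matched an entry, although the array names give no arm. The first group shares the seed AAAGUGC, and its first pair of strands belongs to the miR-106b-25 cluster.
miR-106b-5p: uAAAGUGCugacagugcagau
miR-93-5p: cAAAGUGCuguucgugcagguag
miR-106a-5p: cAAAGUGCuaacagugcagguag
miR-20b-5p: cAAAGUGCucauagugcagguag
The next group shares AUUGCAC and holds the last hairpin of each cluster.
miR-25-3p: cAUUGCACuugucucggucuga
miR-363-3p: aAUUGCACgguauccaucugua
miR-18b-5p alone among the members has the seed AAGGUGC.
miR-18b-5p: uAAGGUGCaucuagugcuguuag
The miR-17 strand of the miR-17 cluster is set beside them for comparison.
miR-17-5p: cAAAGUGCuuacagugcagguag
Counted as the fewest single-base changes, insertions or losses, miR-106a-5p differed from miR-17-5p by 1 and from miR-20b-5p by 2. miR-93-5p differed from miR-20b-5p by 3, and miR-106b-5p from miR-106a-5p by 5. Others were less alike: miR-106b-5p differed from miR-93-5p, and miR-25-3p from miR-363-3p, by 7 each. How far the probes of miR-106a, miR-20b, miR-93 and miR-17 read one another's RNA was not tested.

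The 3 hairpins of the first cluster span 498 bases of the minus strand (GRCm38.p6, chr5:138165321-138165818), all inside the Mcm7 gene (chr5:138164583-138172111). The 4 member hairpins of the second span 875 bases of the minus strand (chrX:52741693-52742567), among which lie 2 further miRNA genes, Mir19b-2 and Mir92-2. The hairpins of miR-93 and miR-363 are shown with the strand listed above in capitals. The former gave the only member precursor readings past 0.4 log2 units above background, and the latter was dark in both forms.
miR-93 hairpin: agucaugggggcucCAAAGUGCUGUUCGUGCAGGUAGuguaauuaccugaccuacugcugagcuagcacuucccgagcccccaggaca
miR-363 hairpin: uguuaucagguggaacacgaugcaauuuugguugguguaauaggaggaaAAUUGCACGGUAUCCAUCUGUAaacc
In miR-93 the strand lies on the 5′ arm (bases 15 to 37 of the hairpin) and in miR-363 on the 3′ arm (bases 50 to 71).

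The values are array intensities on a linear scale, analysed as log2(value + 1). Many probes of an array shared 1 low level, the background, taken as the mode of its log2 values. A name is called bright where its mean over the 8 arrays exceeded the background by over 1 log2 unit. The arrays differed in brightness. Median mature intensity lay between 34140.5 and 36210.5 on arrays 1 and 2 of both groups, and between 24808.5 and 27314.5 on arrays 3 and 4. Its KO minus WT difference was -0.036 on the log2 scale (2-sided exact permutation p = 0.743). KO 4 had the fewest bright names, 74, against 93 to 112 on the other arrays. Markers of epithelial, liver or muscle cells were bright in 0 of 16 names, erythroid markers in 0 of 3, and stromal or endothelial markers in 1 of 11. These counts rest on the mean over all 8 arrays. Within a single genotype miR-486 (1.18 in KO) and miR-126*-5p (1.36 in WT) also passed 1 log2 unit. miR-223, a myeloid miRNA also found in early progenitors, lay 5.03 log2 units above background in WT and 4.78 in KO. No marker name passed limma's test between genotypes, but some readings differed. Lymphoid miR-150 lay 1.49 units above background in WT and 0.66 in KO (difference -0.85, SE 0.26), with intensities of 49779 to 104620 in WT and 38620 to 48646 in KO. From the stromal or endothelial list, its bright name miR-126-5p lay at 1.56 and 0.75 (-0.83, SE 0.44). The name miR-126*-5p lay at 1.36 and 0.34 (-1.04, SE 0.50), but miR-126-3p at 0.28 and 0.13 (-0.17, SE 0.24). Of the 11 names of this list 7 were lower in KO and the others higher, with a median difference of -0.096. Which cells the miR-126 readings came from, the LSK cells themselves included, was not tested. Erythroid miR-486 lay at -0.19 and 1.18 (1.35, SE 0.57), but the other names of its list did not follow. Their differences were 0.035 (miR-144, SE 0.21) and -0.28 (miR-451, SE 0.25), and the list median was 0.035. The summed intensity of the erythroid list ran from 62939 to 120815 in WT and from 81864 to 216891 in KO. That of the stromal or endothelial list ran from 330058 to 505387 in WT and from 238510 to 456407 in KO. Background was not subtracted from these sums and stood at 24166 (KO 4) to 33207 (KO 2) a probe, so they do not measure cell content. The part of other cell types in the member values was not tested. Such whole-sample values cannot separate fewer cells of a type from less RNA per cell.

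In LSK cells the mature probes of 5 of the 6 measured members were bright: miR-106b, miR-93 and miR-25 of the miR-106b-25 cluster, and miR-106a and miR-20b of the miR-106a-363 cluster. The mature strand is also part of its hairpin and primary RNA. Whether these probes read the mature strand alone was not tested, and this limits the comparison of forms below as well. Mature miR-363 lay at background in both genotypes. Between the genotypes none of the 6 passed the test. limma, fitted over all 433 mature names with Benjamini-Hochberg adjustment, gave 0 of 6 members at adjusted p under 0.05, against 0% of all names. At unadjusted p under 0.05 it gave 0 of 6, against 4.39% of all names (19). The WT and KO arrays overlapped for all 6, against 0.924% of names without overlap. The difference was below 0 for 5 of 6 members (median -0.11), as for 64.9% of all names (median -0.043) and for 76 of the 94 bright ones (median -0.24).

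miR-106b, the first hairpin of its cluster, read 225571.5, 250639.5, 161860.5 and 114962 on the WT arrays 1 to 4. On the KO arrays 1 to 4 it read 263616, 239505, 151445 and 71719.5. The dim arrays 3 and 4 were lower in both genotypes, and the groups overlapped. On the log2 scale the mean was 17.46 ± 0.51 in WT and 17.30 ± 0.86 in KO (SD, n = 4 each), a difference of -0.15 (SE 0.42, limma adjusted p = 1). Its 95% confidence interval runs from -1.09 to 0.78, so KO over WT may lie anywhere from 0.47 to 1.72.

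miR-93, from the middle hairpin, had the most negative difference of the members. It read 190771, 218947, 147807.5 and 77446.5 on the WT arrays and 150349, 153901, 136790 and 51283.5 on the KO arrays. WT 4 lay below 3 of the KO arrays, so the groups overlapped here too. The log2 mean was 17.17 ± 0.66 in WT and 16.78 ± 0.76 in KO (SD, n = 4 each). The difference of -0.39 (SE 0.43, interval -1.34 to 0.56, limma adjusted p = 1) was -0.43 on arrays 1 and 2, and -0.35 on arrays 3 and 4. It was -0.01 without KO 4, -0.20 without WT 2 and -0.70 without WT 4, so its size moved with several single arrays.

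miR-25, the last hairpin, has the seed of miR-92a. It read 266934.5, 577120, 311300 and 128717.5 on the WT arrays and 414403.5, 551442, 238312.5 and 106929 on the KO arrays. With 5.40-fold between its brightest and dimmest array, it varied most of the bright members, and WT and KO spanned almost the same range. The log2 means were 18.10 ± 0.89 in WT and 18.08 ± 1.04 in KO (SD, n = 4 each). The difference was -0.021 (SE 0.56, interval -1.26 to 1.22, limma adjusted p = 1). It was 0.28 on arrays 1 and 2 and -0.33 on arrays 3 and 4, and 0.44 without KO 4.

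miR-106a opens the X-linked cluster. It read 186922.5, 262311.5, 151971 and 127318 on the WT arrays and 228533, 313929.5, 159151 and 70908 on the KO arrays. KO held both the highest and the lowest array. The log2 means were 17.42 ± 0.45 in WT and 17.36 ± 0.92 in KO (SD, n = 4 each), and the difference was -0.057 (SE 0.43, interval -1.02 to 0.90, limma adjusted p = 1). It was 0.27 on arrays 1 and 2 and -0.39 on arrays 3 and 4, and 0.36 without KO 4.

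miR-20b shares the seed of miR-106a. Its probe read 785735.5, 914217, 482570.5 and 409064.5 on the WT arrays and 798404, 750482.5, 551737.5 and 241308.5 on the KO arrays. KO 3 lay above WT 3 and WT 4, and only KO 4 lay below all WT arrays. The log2 means were 19.23 ± 0.55 in WT and 19.02 ± 0.79 in KO (SD, n = 4 each). The difference was -0.21 (SE 0.41, interval -1.12 to 0.71, limma adjusted p = 1), -0.13 on arrays 1 and 2, -0.28 on arrays 3 and 4, and 0.17 without KO 4.

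miR-363, the last hairpin of the X-linked cluster, read 25161, 34788.5, 25289.5 and 26797 on the WT arrays and 34186.5, 34724, 25635.5 and 26077 on the KO arrays. Relative to background these lay between -0.40 (WT 1) and 0.11 (KO 4) log2 units, so the probe gave no signal beyond background on any array. Its difference of 0.10 (SE 0.21, interval -0.36 to 0.57, limma adjusted p = 1) therefore compares background with background and says nothing of miR-363 itself.

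**Figure D1:**
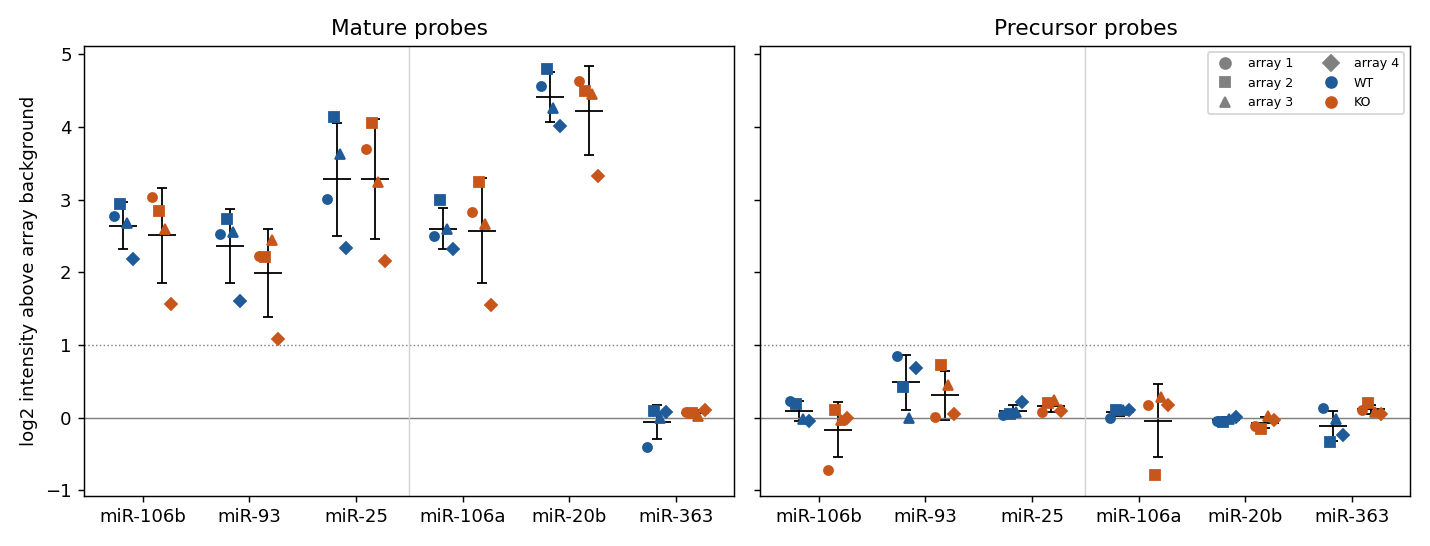
Height of each member above the background of its array (log2 units) for mature probes on the left and precursor probes on the right, with 1 point per array, WT in blue and KO in orange, and the mean with SD in black (n = 4). The dotted line marks 1 log2 unit, past which a name is called bright; the mature probes of all members but miR-363 have their mean above it, and no precursor mean does.

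The 5 bright members shared several of their extreme arrays. Each of the 5 was lowest on KO 4, and within WT each was highest on WT 2 and lowest on WT 4. The means of the 3 measured members of each cluster followed the same arrays. For the miR-106b-25 cluster the mean was 17.58 ± 0.67 in WT and 17.39 ± 0.87 in KO (log2, SD, n = 4 each), a difference of -0.19. For the miR-106a-363 cluster it was 17.14 ± 0.38 and 17.08 ± 0.63, a difference of -0.053. Both differences turned positive without KO 4 (0.22 and 0.23) and without WT 2 (0.043 and 0.11). These values carry no test, since the members were chosen with results known.

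Subtracting the mean of the miR-106a-363 cluster from that of the miR-106b-25 cluster on each array shows whether the clusters moved unequally; the level of this quantity depends on the probes and only its change is read. It was 0.55, 0.64, 0.67 and -0.095 on WT 1 to 4, and 0.47, 0.44, 0.38 and -0.061 on KO 1 to 4. Both arrays numbered 4 stood below the rest, and KO and WT overlapped, with a KO minus WT difference of -0.14. This was -0.013 without KO 4, -0.059 without WT 3, -0.068 without WT 2 and -0.31 without WT 4, so single arrays moved it from near 0 to more than its full size. The miR-106a-363 mean includes miR-363, which stays at background on every array. With the bright members alone the quantity was -0.76, -0.63, -0.47 and -1.12 on the WT arrays and -0.75, -0.83, -0.80 and -0.84 on the KO arrays, a difference of -0.056. By this measure the KO values lay within the WT range.

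**Figure D2:**
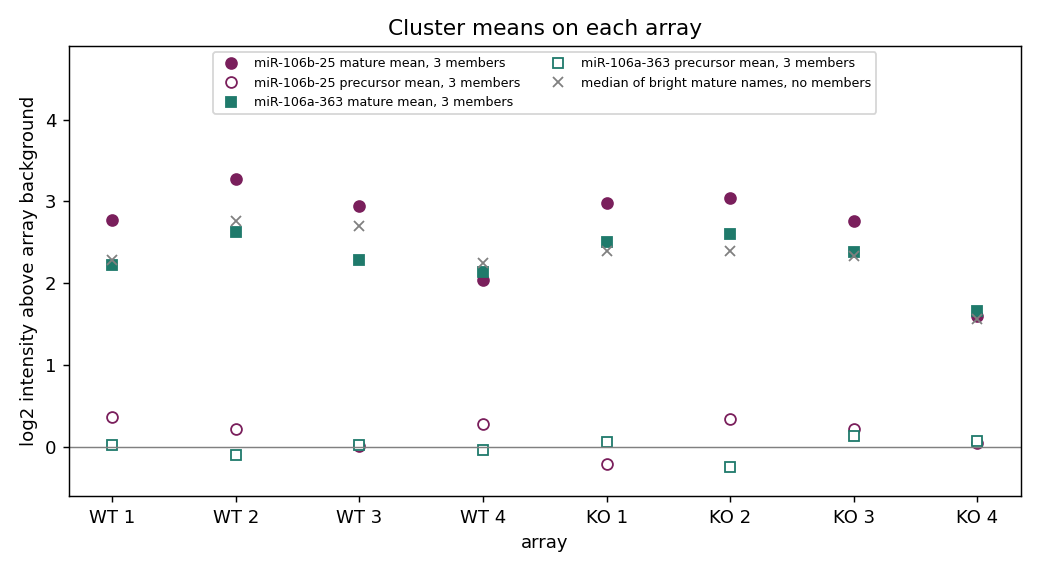
Mean height above background (log2 units) of the 3 measured members of each cluster on each of the 8 arrays, mature as filled and precursor as open symbols, with the median of the 89 other bright mature names as grey crosses. Both mature means and the grey crosses were lowest on KO 4 (1.60 and 1.66 for the clusters, 1.56 for the other names), and the precursor means stayed near 0.

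Other bright names were also low on KO 4. The median height above background of the 89 bright mature names outside the clusters was 1.56 log2 units there, against 2.25 to 2.76 on the other arrays. Its KO minus WT difference was -0.33 (2-sided exact permutation p = 0.286). Set against this median on each array, a scaling chosen after the data were seen, the SD of the 5 bright members within a group fell from 0.45 to 1.04 as deposited to 0.16 to 0.54, with 0.32 in WT and 0.20 in KO for miR-20b. The differences became 0.29 for miR-106a (SE 0.28), 0.33 for miR-25 (SE 0.32), 0.20 for miR-106b (SE 0.27), 0.14 for miR-20b (SE 0.28) and -0.039 for miR-93 (SE 0.28). Of the 5 signs 4 thus turned from negative to positive, and none passed the threshold (limma adjusted p between 0.541 and 0.927). The direction of the mature members between genotypes therefore depends on the scaling, and no direction is given for them here. The part of the array-wide signal in the member values was not tested.

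**Figure D3:**
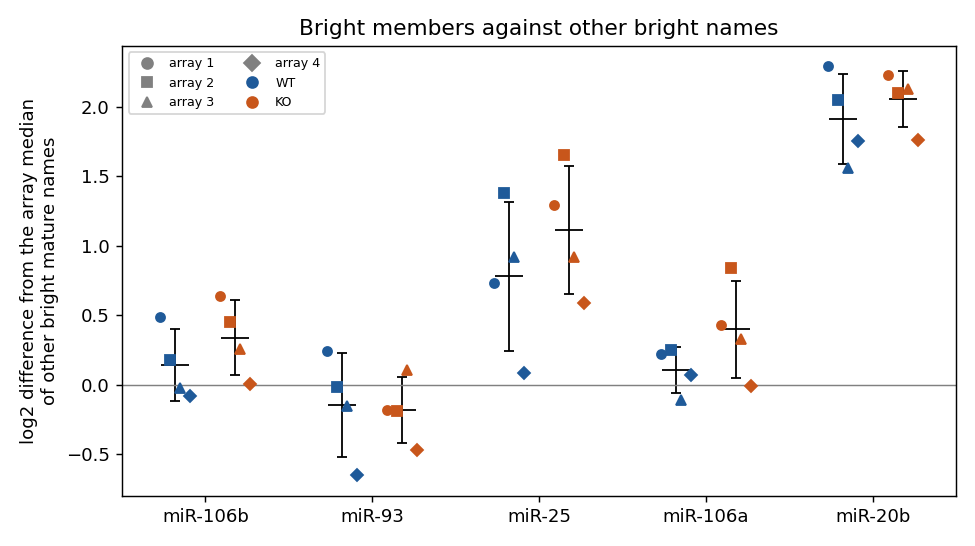
Height of the 5 bright members relative to the median of the 89 other bright mature names on the same array (log2 units), WT in blue and KO in orange, with mean and SD in black (n = 4). The groups overlap for every member shown, and the 4 arrays of a group lie closer together than before for miR-20b, with SD 0.32 in WT and 0.20 in KO.

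The precursor probes of both clusters lay at or near background in both genotypes. None of the 6 was bright, while 34 of all 274 precursor names were. Only miR-93 passed 0.4 log2 units above background on any array. Its precursor stood 0.85, 0.42, -0.0065 and 0.68 above background on WT 1 to 4, and 0.012, 0.72, 0.45 and 0.051 on KO 1 to 4. Readings past 0.4 thus occurred on 3 WT and 2 KO arrays, the others lay near background, and bright and dim arrays occurred among both. None reached the 1 log2 unit used for bright names, and whether these readings are precursor RNA was not tested. The log2 mean was 15.30 ± 0.52 in WT and 15.10 ± 0.47 in KO (SD, n = 4 each), a difference of -0.20 (SE 0.30, interval -0.86 to 0.46, limma adjusted p = 0.999). It was -0.014 without WT 1, -0.038 without KO 4, -0.41 without KO 2 and -0.43 without WT 3.

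In 2 further precursors a single KO array fell below background. The precursor of miR-106b stood 0.23, 0.19, -0.016 and -0.045 relative to background on WT 1 to 4 and -0.72, 0.11, -0.035 and -0.0083 on KO 1 to 4, and KO 1 alone lay well below. Its difference was -0.28 (SE 0.25, limma adjusted p = 0.999) and -0.15 without KO 1. The precursor of miR-106a dropped on KO 2 instead, at -0.79, while its other 7 arrays lay between -0.0007 and 0.28. Its difference was -0.14 (SE 0.23, limma adjusted p = 0.999) and 0.035 without KO 2. For the precursors of miR-25 (0.035), miR-20b (-0.062) and miR-363 (0.21) the SE was 0.19 to 0.23.

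Over the 274 precursor names, limma gave 0 of 6 members at adjusted p under 0.05, against 0% of all names, and 0 of 6 at unadjusted p under 0.05, against 2.55% (7). The groups overlapped for all 6, against 1.09% of names without overlap. The difference was below 0 for 4 of 6 precursors (median -0.10), as for 59.1% of all names. All 6 precursor intervals lay within a 2-fold change either way, but for probes at background this bounds the reading of the probe, not the amount of precursor. Averaged over the cluster, the precursors differed by -0.15 for miR-106b-25 and by 0.00058 for miR-106a-363, KO minus WT.

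The forms were compared as the difference of mature and precursor log2 values on each array, which asks whether they changed unequally with genotype. For miR-20b this difference was 4.61, 4.86, 4.27 and 3.99 on WT 1 to 4 and 4.74, 4.65, 4.43 and 3.35 on KO 1 to 4. The groups overlapped, and KO 4 was again lowest. For miR-106b it was 2.54, 2.75, 2.70 and 2.22 in WT and 3.76, 2.74, 2.62 and 1.58 in KO, with KO 1 raised by its low precursor reading. The change with genotype was -0.14 (SE 0.34) for miR-20b, 0.12 (SE 0.42) for miR-106b, -0.19 (SE 0.41) for miR-93, -0.056 (SE 0.52) for miR-25, 0.085 (SE 0.51) for miR-106a and -0.10 (SE 0.21) for miR-363. Over the 263 miRNAs matched by name, limma gave 0 of 6 members at adjusted p under 0.05 (lowest 0.95), against 0% of all names. At unadjusted p under 0.05 it gave 0 of 6 against 6.46% (17), and 4.94% of all names had groups without overlap, against 0 of 6. The change was below 0 for 4 of 6 members, as for 52.9% of all names. The precursor part of these values lay at or near background for every member.

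**Figure D4:**
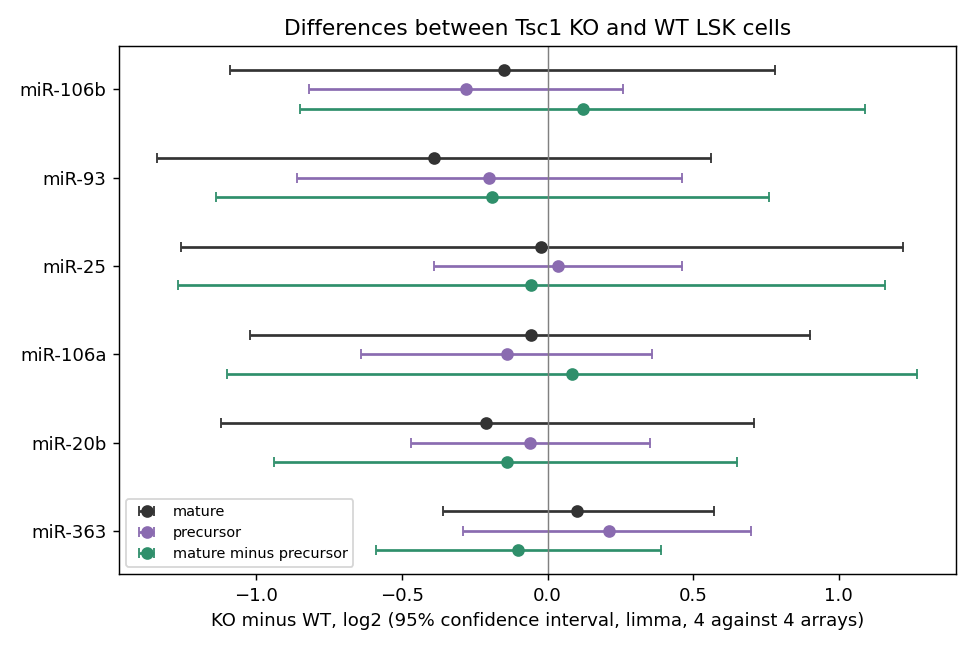
KO minus WT differences (log2) of the 6 measured members for the mature form, the precursor and their difference, with 95% confidence intervals from limma (4 WT and 4 KO arrays). All 18 intervals span 0; that of mature miR-25 reaches from -1.26 to 1.22, and the precursor intervals are narrower.

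The relatives outside the members were the X-linked cluster mates miR-19b-2 and miR-92-2, the paralogues of the miR-17 cluster, and miR-32 and miR-367, which carry the seed of miR-25. Of these 11 mature names 7 had a negative and 4 a positive difference (median -0.026), and 0 passed in either direction (limma adjusted p = 1 for each). Of the 9 with a precursor row 0 passed. miR-92-2 was bright (5.44 log2 units above background in WT, 5.29 in KO, difference -0.17, SE 0.50). miR-19b-2 was not (0.084 and 0.41, difference 0.30, SE 0.36). Of the names of the X-linked cluster, the probes of miR-106a, miR-20b and miR-92-2 were thus bright, and those of miR-19b-2 and miR-363 at or near background. The probe of miR-92-1, of the miR-17 cluster, was bright as well (6.39 in WT, 6.38 in KO). How much of the bright readings came from the X-linked cluster, and not from paralogues of like sequence, was not tested.

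Grouped by seed, all 6 mature names with AAAGUGC were bright, the members miR-106a, miR-106b, miR-93 and miR-20b as well as miR-17-5p and miR-20a, with means 2.17 to 4.44 log2 units above background. Their differences ran from -0.39 to -0.057. Of 6 names with AUUGCAC 4 were bright (miR-25, miR-32, miR-92-1 and miR-92-2), while miR-363 and miR-367 were not. None of the 3 miR-19 names (seed GUGCAAA) was bright, nor was miR-18 (AAGGUGC), whose paralogue miR-18b has no row. miR-17-5p, whose strand as listed above differs from that of miR-106a by 1 base, had a difference of -0.15 (SE 0.49), and that of miR-20a was -0.38 (SE 0.46).

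Likeness over the 8 arrays was measured as the root mean square difference between profiles centred on their own means. Among the 10 pairs of bright members the closest was miR-106b with miR-20b (0.11 log2 units), from different clusters, followed by miR-106a with miR-106b (0.20) and with miR-20b (0.21). The farthest was miR-25 with miR-20b (0.42), and miR-25 lay 0.33 or more from each of the others. The 84 bright mature names that are neither members nor in the list of relatives were compared with the mean of each cluster's bright members. These number 3 for miR-106b-25 and 2 for miR-106a-363, without miR-363. The closest to both means was miR-16-2, an inhibitor of cell cycle genes in the miR-15 family, at 0.10 for miR-106b-25 and 0.091 for miR-106a-363. It was followed for both by miR-30c-2 (0.14 and 0.14) and miR-30d (0.14 and 0.17). The median over the 84 names was 0.43 and 0.39. All these names share the arrays and with them their brightness, so the likeness describes the arrays as much as the miRNAs.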

How the data were processed

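Per the labels' protocols, the authors reverse-transcribed 5 µg of total RNA from biotin-tagged random octamers and measured it on miRNA arrays in 1 colour through a streptavidin-dye conjugate. The deposited numbers are intensities on a linear scale, called normalized (scaled) signal in a template comment per the file headers. How they were scaled, corrected for background or filtered remains not given in the sources used here. A further table equals the mature table in all 4168 cells and was not used.

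Rows of 1 name were averaged after log2(value + 1), which gave 433 mature names from 521 rows and 274 precursor names from 300. Each member has 1 row a table. Background was read per array as the peak of a density (bandwidth 0.1) over both tables. limma 3.58.1 in R 4.3.3 (lmFit and eBayes, 4 against 4, no block, Benjamini-Hochberg threshold 0.05) was fitted on each whole table and on the differences of the 263 matched names. Exact tests used all 70 assignments, with smallest p 0.0286. Precision was limited: with 4 against 4 arrays the median SE was 0.26 for mature, 0.40 for bright mature and 0.23 for precursor names. In 20 simulated data sets 40 names were changed, some by 1 and the rest by 2 log2 units. Of the changes of 1 log2 unit limma found 54.5% among 433 mature names and 76.8% among 274 precursor names. Of those of 2 units it found 87% and 98%. The changed names were drawn from all names, bright or not, and each name varied on its own, without shared array brightness. Since bright mature names have the larger SE, these shares do not apply to the bright members. Figures used Python 3.11.15 and matplotlib 3.10.9. All member rows are named. The list of relatives and the rule for likeness (3 closest bright names a cluster) were, like the members, chosen with earlier results of these data known.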

Additional observations from a re-analysis of the deposited data

Results flagged for a closer look

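Samples far from the others of their group were sought for every member, form and cluster mean, in 48 groups of 4 arrays, and 4 were found, where chance flags about 1 in 20. Mature miR-93 stood at a log2 intensity of 15.65 on KO 4, against 17.06 to 17.23 on the other KO arrays. The median of other bright mature names was also lowest on that array, 1.56 log2 units above background, and the part of this in the miR-93 value was not tested. The mean of mature miR-106b-25 minus that of miR-106a-363 was -0.095 on WT 4, against 0.55 to 0.67 on the other WT arrays, and -0.061 on KO 4, against 0.38 to 0.47 on the other KO arrays. With the bright members alone the KO 4 value of -0.84 lay beside the -0.75 to -0.83 of the other KO arrays, while WT 4 stayed lowest of WT at -1.12. The same quantity for the precursors was -0.0066 on WT 3, against 0.32 to 0.34 on the other WT arrays.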

How the results depend on the processing

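No alternative gave a mature, precursor or form-difference name at adjusted p under 0.05: the counts stayed at 0 for each fit, omission of any 1 array included. The replicate number as a block also gave 0, with lowest adjusted p of 0.0581 (mature), 0.267 (precursor) and 0.271 (forms), and for miR-93 -0.39 at unadjusted p = 0.0192 and adjusted p = 0.321. Same-numbered arrays correlated at 0.093 to 0.35 in the mature and -0.034 to 0.14 in the precursor table and were not each other's best match throughout, so the number was not taken as a pairing. The signs of member differences were less stable, as differences near 0 allow, and the cause was not tested beyond the values given. Quantile normalization turned mature miR-106a (0.29), miR-25 (0.36), miR-106b (0.25) and miR-20b (0.064), and the form difference of miR-25 (0.29), miR-20b (0.088) and miR-93 (0.12). Centring on array medians turned mature miR-25 (0.015). Centring on other bright names, added after the data were seen, turned mature miR-106a (0.29), miR-25 (0.33), miR-106b (0.20) and miR-20b (0.14). Arrays 1 and 2 alone turned mature miR-106a (0.27), miR-25 (0.28) and miR-106b (0.08) and the form difference of miR-25 (0.20). Arrays 3 and 4 alone turned mature miR-363 (-0.0098), the precursors of miR-25 (-0.013) and miR-106a (0.084), and the form difference of miR-106a (-0.47) and miR-106b (-0.36). The arrays labelled with scanner 4000B, all 4 WT but only KO 1 and KO 2, turned mature miR-106a (0.61), miR-25 (0.77), miR-106b (0.48), miR-20b (0.34) and miR-93 (0.041), the precursors of miR-20b (0.079) and miR-93 (0.061), and the form difference of miR-25 (0.55) and miR-20b (0.26). In that set the KO arrays are bright ones only. Omission of 1 array gave ranges of -0.36 to 0.36 for mature miR-106a, -0.40 to 0.44 for miR-25, -0.39 to 0.24 for miR-106b, -0.40 to 0.17 for miR-20b, -0.70 to -0.01 for miR-93 and 0.032 to 0.21 for miR-363. It gave -0.056 to 0.13 for the precursor of miR-25, -0.12 to 0.0049 for miR-20b, -0.28 to 0.035 for miR-106a, -0.43 to -0.014 for miR-93, -0.44 to -0.15 for miR-106b and 0.10 to 0.35 for miR-363. For the form difference it gave -0.39 to 0.50 for miR-106a, -0.41 to 0.30 for miR-25, -0.30 to 0.02 for miR-363, -0.24 to 0.49 for miR-106b, -0.29 to 0.17 for miR-20b and -0.50 to 0.041 for miR-93. The KO minus WT differences of the cluster means moved by less than 1 SD under all alternatives run, but those of the mature means changed sign. That of the precursor miR-106a-363 mean, 0.00058, changed sign too. It was -0.067 on arrays 1 and 2 alone and -0.08 to 0.082 on omission of 1 array. For the mature means of miR-106b-25 and miR-106a-363 the differences were 0.17 and 0.18 after quantile normalization and 0.16 and 0.30 when centred on other bright names. For the latter mean it was 0.12 on arrays 1 and 2 alone. Omission of 1 array gave -0.49 to 0.22 and -0.23 to 0.23, and -0.31 to -0.013 for the difference between the clusters. That difference was -0.012 after quantile normalization. A pseudocount of 1000, the block for arrays 1-2 against 3-4, the filter on bright names and separate probe rows turned no sign. The signal over background limits all precursor values and those of miR-363.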
